A study of Oryza sativa with 6 samples.

Results

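The genes described here encode anthranilate synthase of rice, the enzyme that opens the branch from chorismate to tryptophan. They were found by symbol or synonym: ASA1 (LOC4334640) and ASA2 for the alpha subunit, ASB1 (LOC4336076) and ASB2 (LOC4333918) for the beta subunit, 4 genes of 17905 measured. They were read by 5 probe sets of 57194. A probe set is a group of short probes on the array whose signals are combined into 1 intensity. ASA1 was read by Os.4176.1.S1_at, ASB1 by Os.6876.1.S1_at, ASB2 by Os.11814.1.S1_at, and ASA2 by Os.7114.1.S1_s_at and Os.35043.1.S1_at.

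Anthranilate synthase joins chorismate, the end product of the shikimate route, with an amino group taken from glutamine to give anthranilate. The alpha subunit binds chorismate and is the part that tryptophan inhibits when it builds up. The beta subunit is a glutamine amidotransferase: it splits glutamine and passes the ammonia to the alpha subunit. Plant tryptophan feeds protein synthesis and is also the source of auxin, of tryptamine and serotonin, and of other indole compounds.

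Leaf blades of 2 transgenic lines of Oryza sativa were measured on Affymetrix rice arrays, 3 arrays per line. The overexpressor, line RK16331-13, carried the transcription factor gene Os-LBD37, of the LOB-domain family. The control was an empty vector line. Both carried hygromycin resistance and were grown in hydroponics, the 5th and 6th leaf blades were taken, and the harvest day was set by the emergence of the 8th leaf blade. Rice variety, age in days and the promoter of the transgene are not given in the sources used here. Each group is 1 line, so Os-LBD37 and anything else that differs between these lines cannot be told apart. Nothing in the labels says that the arrays of a line came from separate plants, so p-values measure the spread between arrays alone, which may be technical.

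The background of an array was set from 132 control probe sets whose targets rice does not make, at the intensity that 95 percent of them stay under, and it lay at or below 45.4 on every array. Of 6 measured leaf markers, 5 were above it on every array, among them OsrbcS at 19825 to 26450, and RBCS1 was on none. The summed intensity of the 6 was 94726 to 129634 in the empty vector line and 68168 to 100108 in the overexpressor. Of 4 root markers, Lsi2 and OsSHR1 were above background on no array, and Lsi1 and OsSCR1 were above it on every array. The summed intensity of the 4 was 915 to 1287 in the empty vector line and 677 to 3316 in the overexpressor. On overexpressor replicate 2, Lsi1 alone was at 3052. Of 10 floral markers, 4 were above background on no array and 3 (MADS2, MADS4 and MADS16) on every array. The floral sums were 1075 to 1479.7 in the empty vector line and 643 to 868 in the overexpressor. Of these sums, Lhs1 alone made up 564 to 1019.8 in the empty vector line and 9.30 to 28.8 in the overexpressor, where it was below background and lower (limma adjusted p = 0.00794). Without Lhs1 the floral sums ran the other way, at 459.9 to 511 and 624 to 839. The part of such differences in the results below was not tested. Replicate 2 of both lines stood apart from the other arrays. The morning clock gene CCA1 was at 5241 and 18627 on these arrays, and between 602 and 682 on the other 4. OsPCL1 went the other way, at 1401 and 1275 on these arrays and between 16866 and 22354 on the other 4.

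ASB2 was higher in the overexpressor, and it was the only anthranilate synthase gene that passed the test. Its intensity was 352, 438 and 255 on empty vector arrays 1, 2 and 3, and 1178, 1239.8 and 1279 on overexpressor arrays 1, 2 and 3. Every overexpressor array lay above every empty vector array, with a wide gap between the groups. The means were 348 ± 91.5 and 1232 ± 51.2 (SD, n = 3 each). The log2 difference was 1.81 ± 0.25 (SE; overexpressor minus empty vector), a 3.50-fold rise with a 95% confidence interval of 2.32 to 5.27. The adjusted p was 0.0406 by limma over all genes.

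The test was fitted to log2(intensity + 16) over the whole array, with Benjamini-Hochberg adjustment and a threshold of 0.05. Over all genes, 93 of 17905 passed, 0.519 percent. In the higher direction 57 passed, 0.318 percent. The count was 234 with the replicate number as a block, 239 without both replicate 2 arrays and 404 with array weights. Of the 4 anthranilate synthase genes, 1 passed in the main fit. The members were chosen with earlier results of these data known, so these shares do not test the family. ASB2 ranked 65th by p and 304th by size of rise. Adjusted over all 57194 probe sets, where 59 passed (0.103 percent), ASB2 missed the threshold (limma adjusted p = 0.0702). It also missed it after quantile normalization (adjusted p = 0.0512) and when any single array was left out (adjusted p from 0.0515 to 0.167), while its log2 difference stayed between 1.61 and 1.98. With both replicate 2 arrays left out the difference was 1.98 (adjusted p = 0.0414).

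The rise of ASB2 was present in each pair of arrays with the same replicate number. Since the lines did not overlap, any pairing of their arrays would give this, so only the sizes of the ratios add to it. The ratio of intensities, overexpressor over empty vector, was 3.34 in replicate 1, 2.83 in replicate 2 and 5.02 in replicate 3. The overexpressor arrays were close together, with a coefficient of variation of 4.16 percent, against 26.3 percent in the empty vector line. Separation of the groups is by itself common here: 21.2 percent of all genes did not overlap between the lines, made up of 11.8 percent higher and 9.36 percent lower in the overexpressor. In leaf tissue as a whole, more cells with ASB2 transcript and more transcript per cell cannot be told apart.

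**Figure D1:**
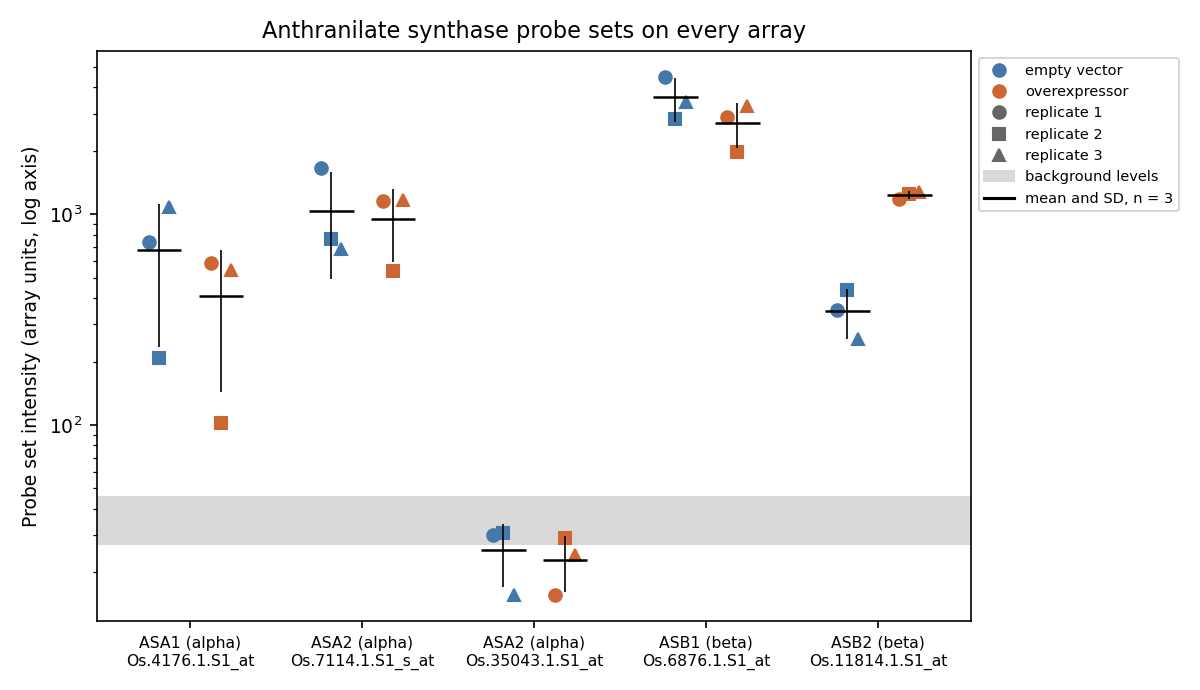
Intensity of each anthranilate synthase probe set (log axis) on the 3 empty vector and 3 overexpressor arrays, with mean and SD per line and the range of array backgrounds in grey. ASB2 lies at 255 to 438 in the empty vector line and 1178 to 1279 in the overexpressor, while the lines overlap for the other probe sets; heights of different probe sets are not comparable.

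ASB1, the other beta subunit gene, did not rise with ASB2. Its intensity was 4488, 2837 and 3422 on empty vector arrays 1, 2 and 3, and 2896, 1979 and 3261 on overexpressor arrays 1, 2 and 3. The groups overlapped, and in each line replicate 2 was the lowest array. The means were 3583 ± 837 and 2712 ± 661 (SD, n = 3 each). The log2 difference was -0.41 ± 0.27 (SE), with a 95% interval of -1.05 to 0.24, and it did not pass (limma adjusted p = 0.587). As a ratio to the empty vector line, the interval ran from 0.484 to 1.18.

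ASA2, for an alpha subunit, had nearly the same mean in both lines. On Os.7114.1.S1_s_at its intensity was 1664, 759.7 and 686 on empty vector arrays 1, 2 and 3, and 1157, 539 and 1162 on overexpressor arrays 1, 2 and 3. The groups overlapped throughout, with the highest value in the empty vector line and the lowest in the overexpressor. The means were 1036 ± 545 and 953 ± 358 (SD, n = 3 each). The log2 difference was -0.08 ± 0.44 (SE; 95% interval -1.11 to 0.94; limma adjusted p = 0.96). Its direction was not settled: it was 0.31 with empty vector replicate 1 removed and 0.11 with both replicate 2 arrays removed. Probe sets ending in _s_at can bind transcripts of more than 1 gene. The other probe set of ASA2, Os.35043.1.S1_at, was not above background on any array, at 15.6 to 30.6 in the empty vector line and 15.5 to 29.0 in the overexpressor, so it gives no level for ASA2.

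ASA1, for the other alpha subunit, varied far more between arrays of a line than between the lines. Its intensity was 735, 209 and 1086 on empty vector arrays 1, 2 and 3, and 588, 102 and 543 on overexpressor arrays 1, 2 and 3. The groups overlapped, and replicate 2 was far below the other arrays in both lines. The means were 677 ± 441 and 411 ± 268 (SD, n = 3 each). The log2 difference was -0.74 ± 0.79 (SE; 95% interval -2.59 to 1.11; limma adjusted p = 0.743). It was -0.65 ± 0.24 without both replicate 2 arrays (adjusted p = 0.218), and 0.03 without overexpressor replicate 2 alone. With the replicate number as a block the difference was the same, with an SE of 0.25 (adjusted p = 0.203). In every pair of same-numbered arrays ASA1 was lower in the overexpressor, with intensity ratios of 0.799, 0.490 and 0.500.

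The alpha and beta subunits work together in 1 enzyme, so changes of their genes were compared within each array. For a pair of genes, the log2 value of one was taken minus that of the other on each array, and this difference was compared between the lines. Only its shift between the lines can be read, since levels of different probe sets are not on 1 scale. ASB2 minus ASA2 was -2.19, -0.77 and -1.37 on empty vector arrays 1, 2 and 3, and 0.03, 1.18 and 0.14 on overexpressor arrays 1, 2 and 3. The lines did not overlap, and the shift was 1.89 ± 0.55 (SE, n = 3 per line), or 3.71-fold. The log2 difference between the lines was 1.81 for ASB2 and -0.08 for ASA2, so this shift mostly restates the rise of ASB2. The exact permutation test over the 6 arrays gave a 2-sided p = 0.1, the smallest that 3 against 3 arrays allow, so this design cannot reach 0.05. Adjusted over the 6 pairs of genes compared, this exact p was 0.3. Arrays were also taken in same-numbered pairs, a pairing that the labels do not state. The shift was then 2.21, 1.95 and 1.51 in replicates 1, 2 and 3, with an SE of 0.21. An exact sign-flip permutation test over 3 such numbers cannot go below p = 0.25.

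ASB2 minus ASB1 shifted by 2.21 ± 0.39 (SE), or 4.63-fold, again with no overlap between the lines (exact permutation p = 0.1; 0.3 adjusted over the 6 pairs). On empty vector arrays 1, 2 and 3 it was -3.61, -2.65 and -3.67, and on overexpressor arrays 1, 2 and 3 it was -1.29, -0.67 and -1.34. Within same-numbered arrays the shift was 2.33, 1.99 and 2.33 (SE 0.11). ASB2 minus ASA1 shifted by 2.55 ± 1.18 (SE), with overlap between the lines (exact permutation p = 0.2; 0.4 adjusted). Within same-numbered arrays it was above 0 each time, at 2.01, 2.39 and 3.24, and its SE was 0.36 (exact sign-flip permutation p = 0.25, the smallest possible). Each shift of a pair with ASB2 contains the log2 difference of ASB2 itself, so these are not separate results. The pairs without ASB2 shifted less. ASB1 minus ASA2 shifted by -0.32 ± 0.30, ASB1 minus ASA1 by 0.33 ± 0.81, and ASA2 minus ASA1 by 0.66 ± 0.84 (SE; exact permutation p = 0.4, 0.7 and 0.6; 0.6, 0.7 and 0.7 adjusted). Their SEs within same-numbered arrays were 0.25, 0.35 and 0.57, and the exact sign-flip permutation p was 0.25, 0.5 and 0.5.

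**Figure D2:**
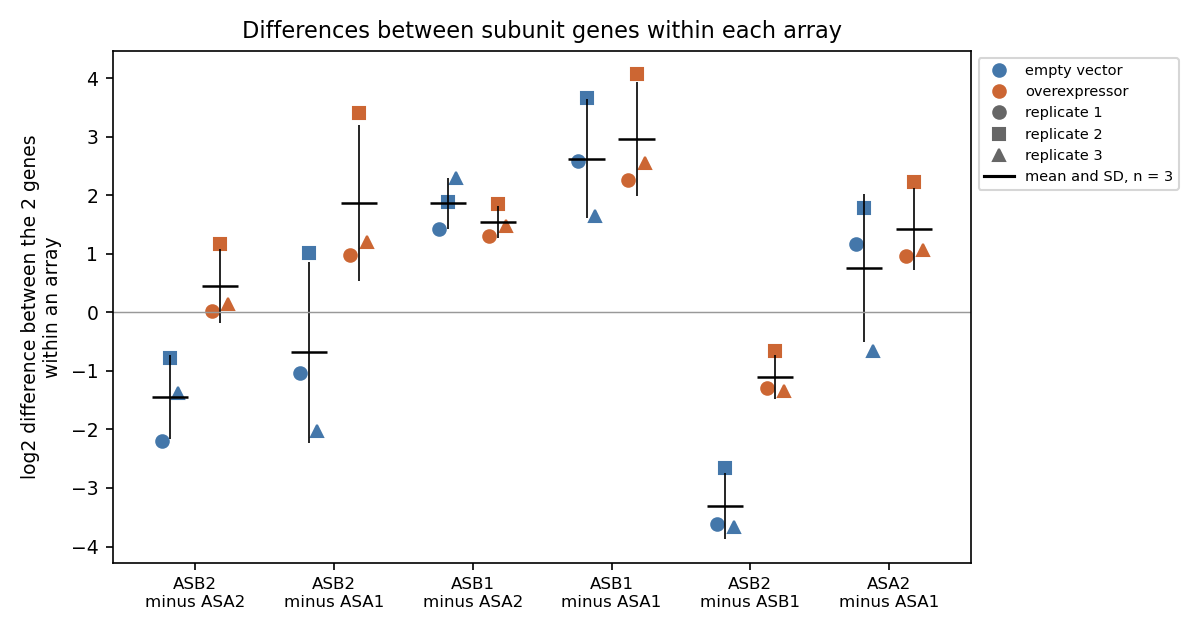
Log2 difference between 2 anthranilate synthase genes on each array (vertical axis) for the 6 pairs of genes, by line, with mean and SD. The lines separate for ASB2 minus ASA2 (shift 1.89) and ASB2 minus ASB1 (shift 2.21) and overlap for the other pairs; only shifts between lines are comparable.

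The 4 genes also differed in how far replicate 2 departed from replicates 1 and 3 of its own line. ASA1 was lower on replicate 2 by a log2 departure of -2.02 in the empty vector line and -2.29 in the overexpressor, 4.04-fold and 4.91-fold lower. Of the 13867 genes above background on every array, 34 (0.245 percent) were that low or lower in both lines. For ASA2 the departures were -0.49 and -1.08, and for ASB1 they were -0.46 and -0.63. A departure below 0 in both lines was found for 34 percent of these genes. ASB2 was the exception among the 4, with departures of 0.52 and 0.01. Each departure rests on 1 array, so it has no error of its own and no test, and the labels do not say what set replicate 2 apart.

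**Figure D3:**
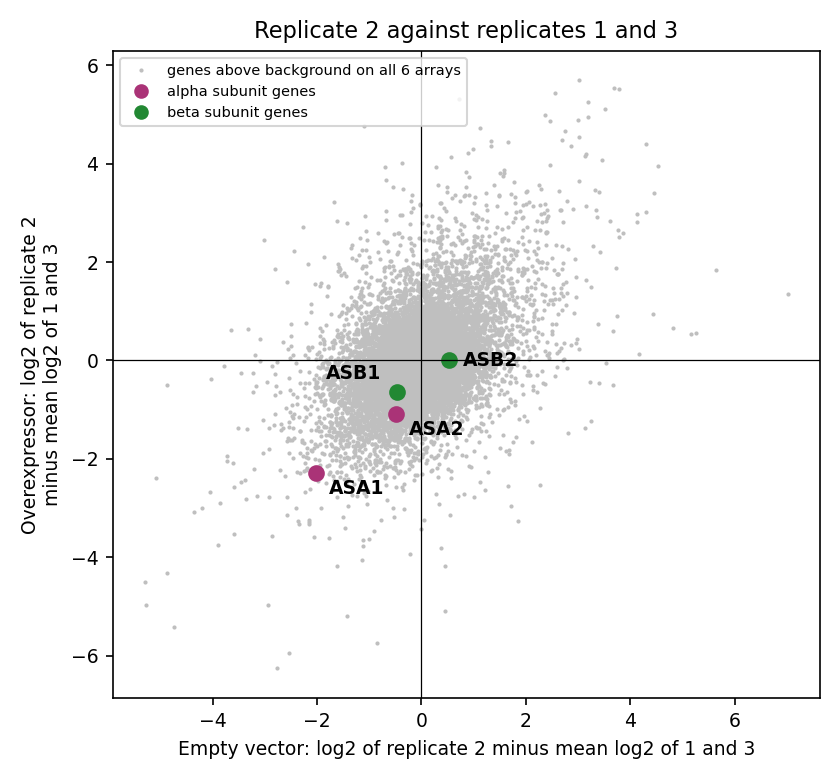
Log2 value of replicate 2 minus the mean log2 value of replicates 1 and 3, in the empty vector line (horizontal axis) and the overexpressor (vertical axis), for genes above background on all 6 arrays in grey. ASA1 lies at -2.02 and -2.29, ASA2 and ASB1 lie below 0 on both axes, and ASB2 lies at 0.52 and 0.01.

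The genes upstream of anthranilate synthase make chorismate. DAHPS1 and DAHPS2 encode enzymes of the first step of the shikimate route, and OsSK1, OsSK2 and OsSK3 encode shikimate kinases. Of these 5 genes, 0 passed in either direction, with a median log2 difference of -0.08 against 0.01 over all genes. OsSK1 had the smallest p. It was at 367, 1659.5 and 828 on empty vector arrays 1, 2 and 3 and at 157, 305 and 143 on overexpressor arrays 1, 2 and 3. All overexpressor arrays lay below all empty vector arrays, as they did for 9.36 percent of all genes. The log2 difference of OsSK1, -1.98 ± 0.55 (SE), did not pass (limma adjusted p = 0.169, and 0.0574 with the replicate block). OsSK3 had a log2 difference of -0.37 ± 0.34 (adjusted p = 0.705).

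Chorismate is also drawn off to other products. ADCS encodes aminodeoxychorismate synthase of folate synthesis, which resembles anthranilate synthase in using glutamine and chorismate, and MTR1 encodes a dehydratase of phenylalanine synthesis. Of these, 0 of 2 passed. ADCS had a log2 difference of -0.41 ± 0.55 (SE; limma adjusted p = 0.804) and MTR1 one of 0.33 ± 0.44 (adjusted p = 0.806). On overexpressor replicate 2 both were higher than on the other arrays of their line, at 596 against 262 and 107 for ADCS, and at 959 against 449 and 259 for MTR1.

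The enzymes that use tryptophan were represented by 8 named genes, for steps toward auxin (TAA1, OsYUCCA1) and toward tryptamine, serotonin and melatonin (TDC2, CYP71P1, SNAT1, OsSNAT2, ASMT, ASMT3). Of these, 0 passed. The log2 difference was below 0 for 7 and above 0 for 1, with a range of -0.89 to 0.24. The median was -0.25, against 0.01 over all genes, and these signs were not tested. ASMT set the low end of the range, at -0.89 ± 0.95 (SE), with line means of 237 in the empty vector line and 217 in the overexpressor. On overexpressor replicate 1 it was below background at 10.7, against 185 and 455 on the other overexpressor arrays. ASMT3 was above background on no array. OsYUCCA1, for a flavin monooxygenase that makes auxin, had the smallest p, with -0.80 ± 0.38 (SE; limma adjusted p = 0.401), and was above background on only 3 of 6 arrays. SNAT1, for an acetyltransferase of melatonin synthesis, had -0.25 ± 0.20 (adjusted p = 0.662). The steps between anthranilate and tryptophan had no gene with a matching name among those searched, and are not described here.

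CARA, for the small subunit of carbamoyl phosphate synthase, is like ASB2 a glutamine amidotransferase, and was the 1 gene matched from the list of such enzymes outside chorismate use. It was at 3208, 4177 and 3615 on empty vector arrays 1, 2 and 3 and at 2769.7, 1558 and 2953 on overexpressor arrays 1, 2 and 3. All overexpressor arrays lay below all empty vector arrays, as they did for 9.36 percent of all genes. The log2 difference of -0.64 ± 0.29 (SE) did not pass (limma adjusted p = 0.38). Over all 16 pathway genes outside anthranilate synthase, 0 passed, and 1 was under an unadjusted p of 0.05, where 14.2 percent of all genes were. Of the 16, 12 had a log2 difference below 0 and 4 above, and the 4 include ASMT3, above background on no array. Their median was -0.25, against 0.01 over all genes, and these signs were not tested.

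**Figure D4:**
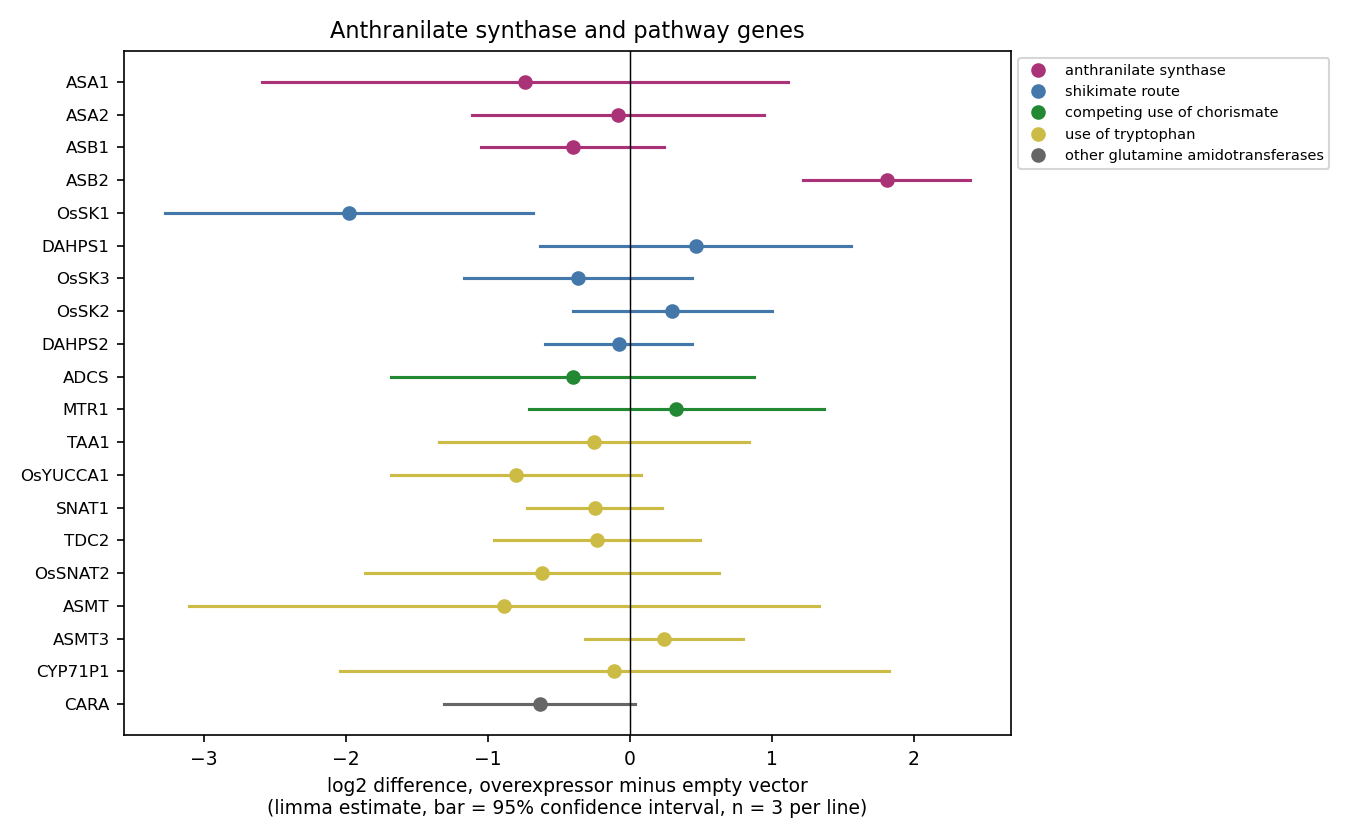
Log2 difference, overexpressor minus empty vector, with 95% confidence interval for the 4 anthranilate synthase genes and 16 pathway genes, coloured by role. Of the 20 genes, ASB2 (1.81, interval 1.22 to 2.40) is the 1 gene that passed the adjusted test over all genes.

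The named genes whose pattern over the 6 arrays was nearest to that of each member were sought among 1914 named genes above background on every array. Likeness was the root mean square difference of log2 values, each gene centred on its own mean, so a smaller value is closer. Genes picked in this way share the member's pattern by choice. For ASB2 the nearest were GBSS-I, for a granule-bound starch synthase, at 0.192, CML16, for a calmodulin-like protein, at 0.239, and SPL2 at 0.247, where the median of all 1914 was 0.985. GBSS-I was at 140.2, 176 and 65.9 on empty vector arrays 1, 2 and 3 and at 434, 540.2 and 549.6 on overexpressor arrays 1, 2 and 3. These 3 genes had log2 differences of 1.95, 1.48 and 1.47 and did not pass (limma adjusted p = 0.0798, 0.0582 and 0.086).

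The other members had other neighbours. For ASB1 the nearest were FEN1A, for a flap endonuclease, at 0.110, CARB, for the large subunit of carbamoyl phosphate synthase, at 0.119, and the protein kinase gene MPK15 at 0.149. For ASA2 they were BIP1, for a chaperone of the endoplasmic reticulum, at 0.186, NH1, for an NPR1-type defence regulator, at 0.235, and the transporter gene ABCG44 at 0.242. For ASA1 they were OC-VI, for a cystatin, at 0.218, GATB at 0.243 and GYRA at 0.317, which were low on replicate 2 of both lines as ASA1 was: OC-VI was at 109 and 59.3 there, against 204 to 584 on the other arrays.

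**Figure D5:**
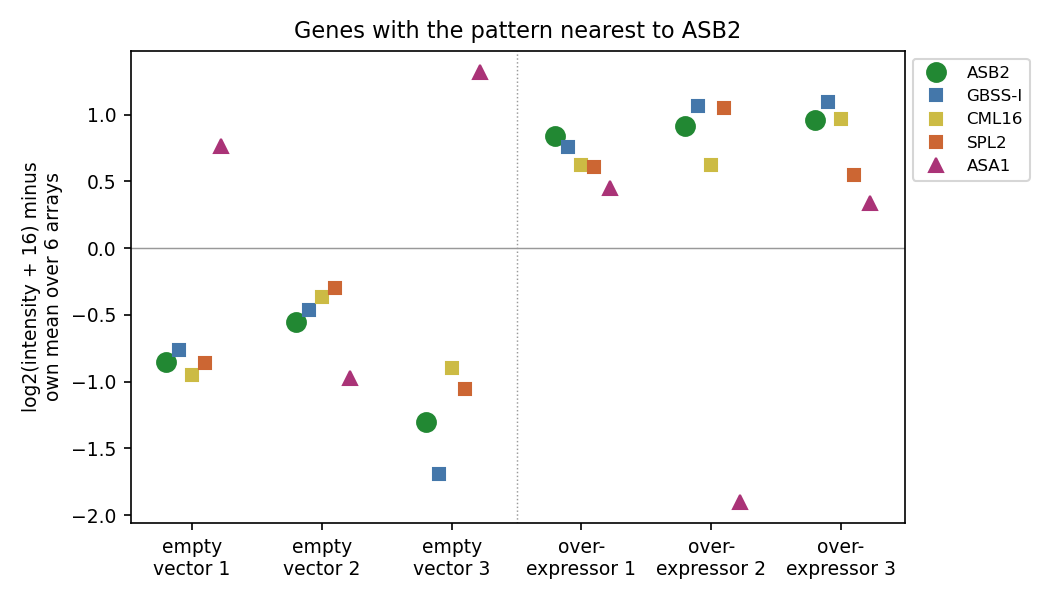
Log2(intensity + 16) minus the gene's own mean over the 6 arrays, for ASB2, the 3 named genes nearest to it and, for contrast, ASA1, on each array. ASB2, GBSS-I, CML16 and SPL2 are below 0 on all empty vector arrays and above 0 on all overexpressor arrays. The last 3 were picked for nearness to ASB2 on these arrays, so this follows from the choice. ASA1 is lowest on replicate 2 of each line.

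The genes next to the members on the chromosome, among measured genes in the map order of assembly ASM3414082v1, mostly did not pass. ASB2 lay between LOC4333917, with a log2 difference of 1.26 ± 0.59 (SE; limma adjusted p = 0.398), and the actin gene AC1, with 0.35 ± 0.33 (adjusted p = 0.712). ASB1 lay between LOC4336077, with 0.01 ± 0.39 (adjusted p = 0.996), and OsVIT1, for a vacuolar iron transporter, which fell by 2.29 ± 0.33 on the log2 scale (adjusted p = 0.0422). The neighbours of ASA1 and ASA2 did not pass, with log2 differences from 0.02 to 1.10 (adjusted p from 0.183 to 0.981).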

How the data were processed

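The authors deposited 1 intensity per probe set and array on a linear scale, from 10 ug of total RNA per sample per the labels' protocols. The sources used here do not say how probes were summarized. In the deposited intensity values, the mean after trimming 2 percent at each end was 500.1 on every array. Any 2 arrays shared at most 0.00349 percent of their values. The number of arrays limits the precision.

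Of 57381 probe sets, 187 controls were left out. GEO's platform annotation gave 22436 probe sets 1 gene, 95 several and 34663 none. Names were updated through the gene table of assembly ASM3414082v1. Each gene was represented by its probe set with the highest mean. limma 3.58.1 in R 4.3.3 (lmFit, eBayes with trend, 2-sided) was fitted to all probe sets. It was also run on simulated arrays with independent noise and added changes larger than the rise of ASB2. That run does not bear on changes as small as the rise of ASB2. The members and lists were chosen with earlier results of these data known. Genes named are the members, the pathway genes that passed, the 2 with the smallest p per role, and the 3 nearest in pattern; other names and the map neighbours were chosen after values were seen.

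Deviations from the line means had correlations of 0.209, 0.300 and 0.154 between arrays of the 2 lines numbered 1, 2 and 3. Between arrays of different numbers the correlations were -0.293 to 0.181, a range that holds the value of number 3. The pairing comes from the numbers in the titles, and these correlations do not establish it for every number. The labels state no shared plant or day.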

Additional observations from a re-analysis of the deposited data

How the results depend on the processing

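ASB2 kept its direction under the 10 other settings and the 6 removals of an array. Its log2 difference of 1.81 (limma adjusted p = 0.0406) was 1.75 after quantile normalization (adjusted p = 0.0512), 1.81 with adjustment over all probe sets (0.0702), and 1.61 to 1.98 without single arrays (adjusted p from 0.0515 to 0.167), so it no longer passed there; removal leaves fewer arrays, and the cause of the other losses was not tested. With the replicate block its adjusted p was 0.0425, and the block changed no call of a member or pathway gene. ASA2, at -0.08, turned to 0.0774 with array weights, 0.11 without both replicate 2 arrays, 0.31 when empty vector replicate 1 was removed and 0.28 when overexpressor replicate 2 was, within -0.32 to 0.31 without single arrays. ASA1, at -0.74, turned to 0.0253 without overexpressor replicate 2 (range -1.41 to 0.0253 without single arrays), and ASB1 lay between -0.56 and -0.19. The shift of ASB2 minus ASA2 was 1.52 to 2.23 without single arrays and 1.76 to 1.94 otherwise. The shifts within same-numbered arrays and the floral sum without Lhs1 were added after seeing the data. The 93 genes became 234 with the replicate block, 404 with array weights, 169 after median centring, 239 without both replicate 2 arrays, 59 over probe sets and 4 to 35 without single arrays; 63 of the 239 were among the 93. Without both replicate 2 arrays the split was 110 higher and 129 lower, against 57 and 36. No pathway gene passed (limma) under any setting run. The number of arrays limits small changes: the 95% interval of the ratio between the lines was 0.166 to 2.16 for ASA1 and 0.463 to 1.92 for ASA2.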
